A study of Mus musculus with 36 samples.

Results

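The comparison set 6 hippocampal RNA libraries of naive APP/Tau mice against 6 of naive wild-type (WT) mice, taken by their titles from 36 libraries in 8 groups of genotype and training. All mice were female, 6 months old and on the C57BL/6 background, and all of them, WT included, carried Pvalb-IRES-Cre, which expresses Cre recombinase in parvalbumin interneurons, and 1 RiboTag allele, which Cre switches to a tagged ribosomal protein Rpl22 (genotype PV_Cre;RiboTag+/-). The APP/Tau mice (APP/Tau;PV_Cre;RiboTag+/-) carried 2 transgenes besides: human APP with the Swedish and Indiana mutations (Sw,Ind, J9 line), and human tau P301S (PS19 line), whose expression is driven by the mouse prion protein promoter. Naive mice had stayed in the home cage after 3 days of handling, while the trained groups, used here as a separate set of libraries (3 APP/Tau and 5 WT), had learned the hidden platform of the Morris water maze. Each library holds polyadenylated RNA of the input fraction, the cleared lysate of both hippocampi before any ribosome pull-down, so it represents the whole tissue and not the parvalbumin cells.

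APP is the precursor of the amyloid beta peptide, and the J9 line was made to release it in excess, while the tau of the PS19 line carries a mutation of inherited frontotemporal dementia and aggregates in neurons. Microglia, the resident phagocytes of the brain, are known to gather around amyloid and damaged neurons and then to switch on a set of genes that includes the receptor Trem2, the lectin Clec7a and the integrin Itgax. Hippocampal interneurons release peptides such as neuropeptide Y and somatostatin beside GABA, and loss of these peptides has been described in models of amyloid and tau pathology.

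The deposited values were raw counts per gene, and the 6 WT libraries held 79.1 to 105.6 M counts and the 6 APP/Tau libraries 75.4 to 115 M (mega counts). The labels do not say that each library came from its own mouse, so the p-values measure the spread between these libraries, which may in part be technical. No pair of libraries was a repeat of another: over the 30 pairs within the 2 groups, chi-square per degree of freedom ran from 22.6 to 129. Several libraries stood apart. APP/Tau naive replicates 1 and 6 had far higher levels of disease-associated microglia genes such as Itgax than the other 4, while P2ry12 and Tmem119 were not raised in them. WT naive replicate 5 had the highest Gfap of its group, 1203 CPM (counts scaled to the library size) against 409.5 in the next library. Choroid plexus genes were high in 5 libraries, replicates 4 and 5 of WT and replicates 2, 5 and 6 of APP/Tau, and low in the remaining 7. Pvalb, the marker of the Cre-expressing cells, ranged from 2.59 to 20.7 CPM in WT and from 2.60 to 17.5 CPM in APP/Tau, and Rpl22 from 66.5 to 76.8 and from 66.1 to 78.6 CPM.

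In naive APP/Tau hippocampus 17 of 25382 tested genes (0.067%) differed from WT by edgeR's quasi-likelihood test (Benjamini-Hochberg adjusted p under 0.05), 7 higher (0.0276%) and 10 lower (0.0394%). Of these, 9 were neighbours on chromosome 16 that fell by about the same amount. Another 6 were Prnp and 5 transcripts that marked the Tau line in earlier results of these data. The remaining calls were the neuropeptide gene Npy, which fell, and the macrophage metalloelastase gene Mmp12, which rose. At an unadjusted p under 0.05 stood 1899 genes (7.48%), of which 970 were higher (3.82%) and 929 lower (3.66%), and 43 genes lay higher in every APP/Tau library than in any WT library (0.169%), 34 lower (0.134%). The shares of 3.82% higher and 3.66% lower are the background for every naive list count at an unadjusted p under 0.05 below. The median log2 difference over all genes was 0.00134. On simulated counts of this comparison the test recovered 93% of changes of 1 and 70% of changes of 0.5 on the log2 scale.

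The chromosome 16 genes fell by amounts near 1 on the log2 scale. Usp16, which encodes a deubiquitinase of histone H2A, stood at 26.2, 28.8 and 30.3 CPM (lowest, median and highest of 6) in WT and at 13.5, 13.9 and 14.6 CPM in APP/Tau. It fell by 1.02 on the log2 scale (SE 0.0479; edgeR quasi-likelihood, adjusted p = 1.24e-16). Cct8, a subunit of the TRiC chaperonin that folds actin and tubulin, stood at 124, 142 and 153 CPM in WT and at 63.1, 67.1 and 71.1 CPM in APP/Tau, and fell by 1.06. The groups did not overlap for either gene, nor for N6amt1, a methyltransferase subunit, which fell by 1.09, Ltn1, a ubiquitin ligase that clears stalled nascent chains, which fell by 1.01, Rwdd2b, which fell by 1.04, or Bach1, a haem-sensing repressor of antioxidant genes, which fell by 0.92. Grik1, which encodes a kainate receptor subunit of interneurons, stood at 12.8, 14.4 and 15.5 CPM in WT against 6.92, 7.14 and 8.35 CPM in APP/Tau, and fell by 0.97. Of the noncoding transcripts, B130034C11Rik fell by 1.07 and 2810407A14Rik by 0.79, and for 2810407A14Rik 5 of 6 APP/Tau libraries lay below the lowest WT library. The call of 2810407A14Rik was kept in 5 of the 12 fits that each left out 1 library, and was lost without APP/Tau replicate 1, 3, 5 or 6 or WT replicate 1, 3 or 4, with edgeR quasi-likelihood adjusted p-values from 0.0058 to 0.164. These 9 genes were chosen as a group in earlier results of these data, so their shared direction is a description.

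In the gene order of GRCm38.p6 (the counts use another build, so order alone was taken), the 9 genes stand in 1 run of 10 tested genes from N6amt1 to Grik1. The genes below that were not called are named by their place in this order. The remaining member of the run, Map3k7cl, had a log2 difference of −1.31 with an adjusted p of 0.611 and a mean log2 CPM of −2.71. Past Grik1, the next 3 tested genes were low in all groups and lay at −1.12 (4930590A17Rik), −0.73 (LOC115486002) and −1.06 (Gm33207), with unadjusted p-values of 0.0111, 0.0301 and 0.0027. Tiam1, which activates the GTPase Rac in dendritic spines and lies 5 tested genes past Grik1, stood at 113, 132 and 141 CPM in WT and at 92.7, 104 and 116 CPM in APP/Tau, with 5 of 6 APP/Tau libraries below the lowest WT library. Its difference of −0.33 had an unadjusted p of 6.78e-05, the smallest outside the threshold, and, in the same edgeR test, an adjusted p of 0.0956. On the other side of the run Adamts1 lay at −0.30 and Adamts5 at −0.30, and Sod1, 3 tested genes past Tiam1, lay at 0.00. Adamts1 had an unadjusted p of 0.015 and Adamts5 of 0.174. The plot of the gene order shows a step at N6amt1 and a return towards 0 beyond Gm33207.

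**Figure D1:**
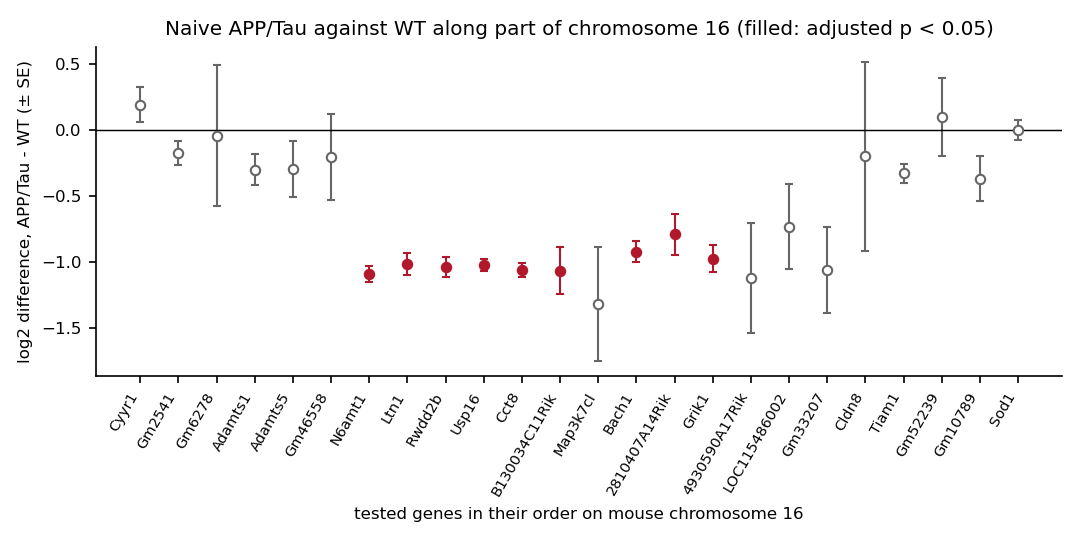
Log2 difference of naive APP/Tau from WT (vertical axis, bars are 1 standard error, n = 6 against 6) for 24 tested genes in their order along mouse chromosome 16 (horizontal axis). Filled red points passed an adjusted p of 0.05: the 9 genes between N6amt1 at −1.09 and Grik1 at −0.97 lie near −1, as do 3 low genes just past Grik1, while genes before N6amt1 and beyond Gm33207 lie nearer 0.

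Genes that work with Bach1 and Cct8 showed no difference that passed the test, Cct8 itself apart. Among 22 haem and antioxidant genes that Bach1 is known to repress or that act beside them, 18 lay above 0 with a median of 0.09. At an unadjusted p under 0.05, 5 were higher, against 3.82% of all genes. Their mean log2 CPM less the mean over all 36 libraries was 0.22 and 0.18 in APP/Tau replicates 1 and 6. In replicates 2 to 5 it lay from −0.02 to 0.06, within the WT range of −0.21 to 0.11. The part of Bach1 in these values was not tested. Gclm, a subunit of the enzyme that starts glutathione synthesis, stood at 30.2, 31.1 and 32.4 CPM in WT and at 33.3, 35.6 and 38.2 CPM in APP/Tau, so that the groups did not overlap. Its log2 difference was 0.20 (unadjusted p = 0.000511, edgeR quasi-likelihood adjusted p = 0.396) in naive and 0.25 (unadjusted p = 0.000404) in trained libraries. Hmox1, the haem oxygenase, had 3.6, 4.83 and 6.33 CPM in WT and 5.21, 6.54 and 14.2 CPM in APP/Tau, a difference of 0.75 (unadjusted p = 0.00112), and differed by 1.14 between the trained groups (unadjusted p = 0.00016). In the APP and the Tau naive libraries, which were set against the same WT libraries, Hmox1 lay at 0.46 and −0.15 from WT. Set directly against Tau naive libraries, APP/Tau lay 0.91 higher (unadjusted p = 0.000785). Of the 16 TRiC and prefoldin genes, Cct8 was the sole member with an unadjusted p under 0.05. Cct5, the member with the next smallest p, lay at −0.11.

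Prnp, whose promoter drives the tau transgene, went with the Tau label in the 12 libraries. Prnp too was tied to the Tau line in earlier results of these data, so it is no separate check of the label. It stood at 728, 806 and 879 CPM in WT and at 1590, 1687 and 1830 CPM in APP/Tau, and rose by 1.09 (SE 0.12; edgeR quasi-likelihood, adjusted p = 8.14e-07). No APP/Tau library came near the WT range. The pseudogene Lamr1-ps1 had 208 to 346 counts in the 6 APP/Tau libraries and 0 in every WT library, and 4930590L14Rik had 28 to 54 counts against 0. Gm32754 had 24 to 41 counts and Gm32875 4 to 22 counts in APP/Tau, with 1 count of each in a single WT library, and Gm6214 had 10 to 19 counts against 0. All 5 transcripts passed the test, with adjusted p-values from 5.06e-05 to 0.0134 in edgeR's quasi-likelihood test, and no fold is given against WT libraries at 0. These 5 were tied to the Tau line in earlier results of these same data, so their calls are a description and no separate check of the label. With at most 1 count in any WT naive library, they passed the filter on low counts through other libraries. With the replicate block Gm6214 (adjusted p = 0.0557) and Gm32875 (0.0626) lost their calls. They are predicted genes or pseudogenes, whose counts can be shared with near-identical copies. Mouse App stood at 1565, 1619 and 1902 CPM in WT and 1398, 1581 and 1674 CPM in APP/Tau (log2 difference −0.09, adjusted p = 0.709), and mouse Mapt at 514, 549 and 577 CPM against 522, 558 and 576 CPM (0.02, adjusted p = 0.939), both by edgeR's quasi-likelihood fit. Neither mouse gene followed the transgenes, so they do not check the labels.

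Npy was the called gene outside the chromosome 16 run that was lower. Neuropeptide Y is released by hippocampal interneurons and dampens glutamate release. Npy stood at 24.1, 29.3 and 35.4 CPM in WT and at 16.5, 20.4 and 23.2 CPM in APP/Tau, and the groups did not overlap. It fell by 0.55 (standard error 0.113, unadjusted p = 2.46e-05, edgeR quasi-likelihood adjusted p = 0.0367). The call of Npy was lost with the replicate block (adjusted p = 0.0557), the library number as a covariate (0.0735), no filter on low counts (0.0525), limma-voom (0.0717) and the compared groups alone (0.205), and kept with DESeq2 (0.00273). In trained libraries, which share the model and its estimate of the spread but are not among the 12 compared, Npy stood at 16.3, 19.9 and 24.4 CPM in APP/Tau and at 19.8, 26 and 31.5 CPM in WT, a difference of −0.31 (unadjusted p = 0.0389, adjusted p = 0.462), with overlapping groups. Naive APP and Tau libraries, set against the same WT libraries, lay at −0.35 and −0.26. The adjusted p of Npy lay between 0.0193 and 0.212 when each of the 12 libraries was left out in turn and under 0.05 in 3 of these 12 fits, while its log2 difference stayed between −0.61 and −0.49. In bulk tissue, fewer cells of a type and less RNA per cell cannot be told apart, here and in every result below.

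Other peptide genes lay lower beside Npy, and their start regions show which of them hold a cAMP response element, the site through which neuronal activity drives several peptide genes. The sequences below are the 120 bases before the annotated start in RefSeq (GRCm38.p6), 5′ to 3′ on the gene's strand, for Npy (chr6:49822590-49822709, plus strand), Sst, which encodes somatostatin (chr16:23890845-23890964, minus strand), and Scg2, which encodes the granule protein secretogranin II (chr1:79440027-79440146, minus strand). They were chosen as the called gene and 2 peptide genes that lay lower with it and hold the element. Capitals mark TGACGTCA, the full element, which reads the same on both strands.
Npy: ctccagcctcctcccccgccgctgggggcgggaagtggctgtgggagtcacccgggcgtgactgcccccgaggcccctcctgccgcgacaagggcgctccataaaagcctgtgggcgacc
Sst: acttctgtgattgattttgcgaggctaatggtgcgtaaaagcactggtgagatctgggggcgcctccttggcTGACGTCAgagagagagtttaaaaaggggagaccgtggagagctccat
Scg2: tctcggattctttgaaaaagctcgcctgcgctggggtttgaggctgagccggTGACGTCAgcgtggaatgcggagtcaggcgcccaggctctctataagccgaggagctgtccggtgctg
The element begins 48 bases before the start of Sst and 68 bases before that of Scg2, and these letters are not in the 250 bases before the start of Npy. Nor is the element in the 120 bases before any annotated start of Cort, Adcyap1 or Crhbp, which lay at −0.68, −0.50 and −0.53. Over the 250 bases before the start it was found in 2 of 17 neuropeptide genes with a promoter in the table (11.8%) and in 3 of 13 granule genes (23.1%), against 398 of 17031 tested genes (2.34%). A match of letters is a description of the window and was not tied to the expression differences by a test.

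Of 20 neuropeptide genes 19 passed the filter on low counts, 18 of them lay below 0 (49.6% of all genes did) with a median log2 difference of −0.31, and 6 were lower at an unadjusted p under 0.05, against 3.66% of all genes. Cort, which encodes the somatostatin relative cortistatin, stood at 3.87, 4.57 and 5.57 CPM in WT and at 1.63, 2.65 and 4.94 CPM in APP/Tau. The difference was −0.68 (unadjusted p = 0.0015), with 5 of 6 APP/Tau libraries below the WT range. Adcyap1, the gene of the peptide PACAP, stood at 8.08, 9.67 and 10.9 against 4.39, 7.29 and 8.77 CPM, a difference of −0.50 (unadjusted p = 0.00599). Sst stood at 146, 174 and 204 against 122, 142 and 153 CPM, a difference of −0.31 (unadjusted p = 0.00728), and lay at −0.34 between the trained groups (unadjusted p = 0.0183). Tac1, which encodes substance P, did not overlap between the groups, at 8.29 to 12.0 CPM in WT and 3.94 to 7.25 CPM in APP/Tau, although its difference of −0.59 had an unadjusted p of 0.0783 in the fit over all groups. Tac1 is also among the markers of thalamic and habenular tissue beside the hippocampus, a list that shares 2 genes with the neuropeptides. Of its 20 markers 17 lay below 0 (median −0.29), with scores from −0.50 to 0.67 in WT and from −0.36 to 0.14 in APP/Tau, and the part of that tissue in the peptide values was not tested. Cck, the cholecystokinin gene, lay at −0.12 (unadjusted p = 0.24) with overlapping groups. The mean of the list's members per library, given as log2 CPM minus the mean over all 36 libraries and called the list score here, lay from 0.02 to 0.51 in WT and from −0.33 to −0.02 in APP/Tau, so that all 6 APP/Tau libraries lay below every WT library. In the trained groups the scores overlapped, from −0.19 to 0.74 in WT and from −0.22 to 0.31 in APP/Tau, and 3 of the 19 genes were lower at an unadjusted p under 0.05, where 3.4% of all genes were. The 0.74 was that of WT trained replicate 4, whose score of striatal markers was 2.06. The other WT trained libraries lay from −0.19 to 0.02. The 0.31 was that of APP/Tau trained replicate 3, with striatal and thalamic scores of 0.58 and 0.90. The part of such tissue in the trained peptide values was not tested.

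The genes of dense-core granules, which store and process peptides, lay lower by less. Of 17 granin and peptide-processing genes 15 lay below 0, with a median of −0.11. At an unadjusted p under 0.05, 5 were lower, against 3.66% of all genes. That count of granins and peptide processing genes was 3 without APP/Tau replicate 2 or 6 or WT replicate 4, 5 or 6, and 8 without APP/Tau replicate 3. Vgf, a granule protein whose fragments act as peptides, stood at 186, 248 and 279 CPM in WT and at 163, 188 and 210 CPM in APP/Tau, a difference of −0.37 (unadjusted p = 0.00024, edgeR quasi-likelihood adjusted p = 0.234). WT replicate 1, at 186 CPM, lay within the APP/Tau range, and the other 5 WT libraries lay above it. Scg2 stood at 200, 208 and 244 against 152, 172 and 190 CPM, with no overlap, and differed by −0.32 (unadjusted p = 0.000721). Pam, which amidates peptides, lay at −0.15 (unadjusted p = 0.00602), Ptprn at −0.15 (0.0432) and the chromogranin gene Chga at −0.16 (0.0482). Between trained APP/Tau and WT these differences were smaller in size, at −0.06 for Vgf, −0.09 for Scg2, −0.01 for Pam and 0.03 for Chga. No unadjusted p there was under 0.05 among the 17 genes, where 6.82% of all genes were higher and 3.4% lower. The difference of the naive and trained differences had an unadjusted p of 0.0398 for Vgf and 0.111 for Scg2, and of 0.197 for Npy, and none of these passed adjustment.

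Of 20 peptide receptor genes 2 were lower at an unadjusted p under 0.05, where 3.66% of all genes were. Both encode receptors of neuropeptide Y, and 7 of the 20 genes lay above 0. Npy1r stood at 29.1, 31.7 and 36 CPM in WT and at 21.9, 27.4 and 29.2 CPM in APP/Tau, a difference of −0.27 (unadjusted p = 0.000907). Npy5r stood at 7.13, 7.30 and 8.14 against 5.11, 5.88 and 7.51 CPM, a difference of −0.29 (unadjusted p = 0.0012), and for each gene 5 of 6 APP/Tau libraries lay below the WT range. In trained libraries Npy1r lay at −0.26 (unadjusted p = 0.0105) and Npy5r at −0.23 (0.0406). The third receptor, Npy2r, lay at −0.13 in naive (unadjusted p = 0.32) and at −0.44 in trained libraries (0.0144). Crhbp, the binding protein of corticotropin-releasing hormone and a product of somatostatin interneurons, stood at 23.9, 27.2 and 36.1 CPM in WT and at 14.8, 20 and 22.3 CPM in APP/Tau, without overlap. The difference was −0.53 (standard error 0.123, unadjusted p = 0.00016, edgeR quasi-likelihood adjusted p = 0.17) and in trained libraries −0.49 (unadjusted p = 0.0049). Crh itself, named after its values were seen, lay at −0.47 (unadjusted p = 0.033). The plot of peptide genes, many of them named for a small p in the naive comparison, shows naive differences below 0 throughout. Its trained differences are nearer 0 for Npy, Adcyap1, Vgf and Scg2 and alike in size for Sst, Npy1r, Npy5r and Crhbp.

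**Figure D2:**
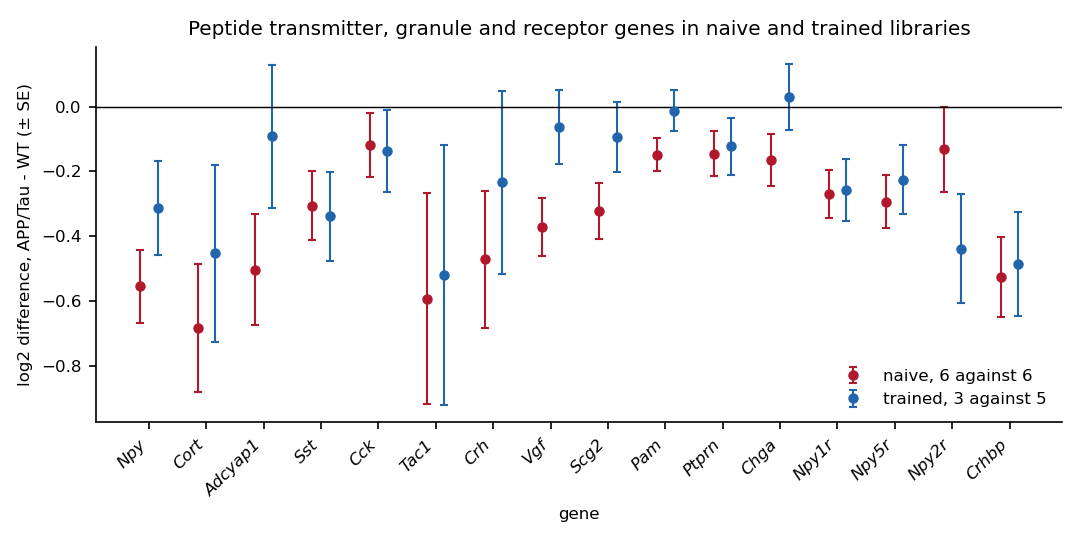
Log2 difference of APP/Tau from WT (vertical axis, bars are 1 standard error) for 16 peptide, granule and receptor genes, in naive (red, 6 against 6 libraries) and trained mice (blue, 3 against 5). All 16 naive points lie below 0, with Npy at −0.55 and Cort at −0.68. Of the 16 trained points 15 do, the exception being Chga at 0.03. Many of these genes were named for a small p in the naive comparison, so their shared naive sign follows in part from that choice. Over the whole lists, 18 of 19 neuropeptide, 15 of 17 granule and 13 of 20 receptor genes lay below 0 in naive libraries. In trained libraries 12 of 19, 14 of 17 and 16 of 20 did.

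Markers of interneurons as a class share 5 genes with the neuropeptide list. Of 38 interneuron identity genes 3 were lower at an unadjusted p under 0.05 (3.66% of all genes were), Npy, Sst and Calb2. The list median was −0.05. The interneuron identity score lay from 0.00 to 0.09 in WT and from −0.17 to 0.10 in APP/Tau, where 5 of 6 libraries lay below the lowest WT library and 1 above the highest. Gad1, which makes GABA, stood at 310, 332 and 345 CPM in WT and at 259, 297 and 365 CPM in APP/Tau, a difference of −0.14 (unadjusted p = 0.0639). Calb2, the calretinin gene, lay at −0.37 in naive (unadjusted p = 0.0468) and at 0.60 in trained libraries (0.0129), and the difference between the 2 states had an unadjusted p of 0.00212. It is also one of the thalamic and habenular markers, whose median was −0.29 in the naive and 0.31 in the trained comparison. The part of that tissue in the Calb2 values was not tested.

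**Figure D3:**
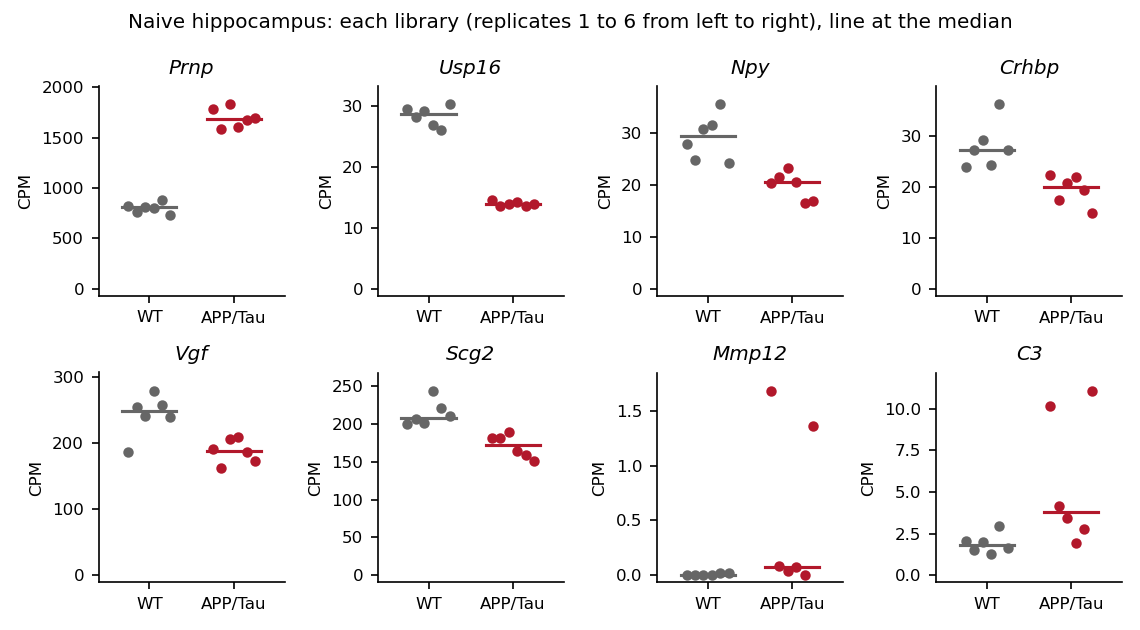
CPM (vertical axes, each from 0) of 8 genes in the 6 WT (grey) and 6 APP/Tau (red) naive libraries, with a line at each group's median. Prnp, Usp16, Npy, Crhbp and Scg2 do not overlap between the groups, whereas Mmp12 and C3 are raised mostly in APP/Tau replicates 1 and 6.

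Mmp12, a metalloelastase that macrophages and activated microglia secrete, had 139, 6, 4, 8, 0 and 134 counts in APP/Tau replicates 1 to 6 and 0, 0, 0, 0, 2 and 2 counts in the WT libraries. It rose (edgeR quasi-likelihood, adjusted p = 0.0162), and no fold is given against a group at so few counts. The call rests on replicates 1 and 6, was kept in 6 of the 12 fits that each left out 1 library, and was lost without either of these replicates and without WT naive replicate 3, 4, 5 or 6, with adjusted p-values from 0.00224 to 0.193. It was also lost with limma-voom and with the legacy quasi-likelihood fit. With the compared groups alone Mmp12 did not pass the filter on low counts and was not tested. In the main fit it passed that filter through the libraries where it was high. In the APP naive libraries Mmp12 lay between 0 and 0.0762 CPM and in the Tau naive libraries between 0.0220 and 0.297 CPM. In trained libraries Mmp12 lay between 0.0242 and 0.605 CPM in APP/Tau and between 0 and 0.0474 CPM in WT, with an unadjusted p of 0.0305.

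The start region of Mmp12 is shown because PU.1, the transcription factor that defines macrophages and microglia, binds a purine-rich site searched here as GAGGAAGT on both strands. The sequence is the 120 bases before the first annotated start in RefSeq (GRCm38.p6, chr9:7344277-7344396, plus strand, 5′ to 3′), and capitals mark the site, which lies on the reverse strand and begins 88 bases before the start.
Mmp12: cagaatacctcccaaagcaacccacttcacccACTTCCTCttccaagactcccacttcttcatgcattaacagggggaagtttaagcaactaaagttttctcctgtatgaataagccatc
Over the 250 bases before the start, 467 of 17031 tested genes held this site (2.74%), as did 1 of 25 disease-associated microglia genes with a promoter in the table (4%, Spp1). Of 17 homeostatic microglia genes 0 held it. The site is not in the 120 bases before the other annotated start of Mmp12. The match describes the window and not the binding of PU.1.

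The disease-associated microglia genes showed the same libraries. Of 32 such genes, all of which passed the filter, 28 lay above 0 with a median log2 difference of 0.50, and 16 were higher at an unadjusted p under 0.05, against 3.82% of all genes, while none passed adjustment. The integrin gene Itgax had 1980, 122, 71, 27, 53 and 1602 counts in APP/Tau replicates 1 to 6 and 8 to 79 counts in WT. Cst7, a protease inhibitor, had 366, 20, 15, 14, 6 and 520 counts against 8 to 13, and the fungal-glucan receptor gene Clec7a had 1023, 100, 23, 14, 23 and 1402 counts against 6 to 62. The chemokine gene Ccl4 had 74, 20, 4, 12, 3 and 93 counts against 1 to 7. In each case replicates 1 and 6 lay far above WT, replicate 2 above it by less, and replicates 3 to 5 within or near the WT range. Ccl4, with at most 7 counts in any WT naive library, passed the filter on low counts through other libraries. It is among the 16 genes counted. The receptor gene Trem2 stood at 7.44, 8.95 and 24.5 CPM against 5.5, 7.44 and 9.83 CPM in WT (0.77, unadjusted p = 0.0202), and its adaptor Tyrobp at 4.87, 6.46 and 18.7 against 3.80, 5.24 and 5.95 CPM (0.91, 0.0117). The list score was 1.58 in both replicate 1 and replicate 6, 0.30 in replicate 2 and from −0.32 to −0.20 in the other 3, against −0.51 to 0.27 in WT. Of the 32 disease-associated microglia genes 6 were higher at an unadjusted p under 0.05 without replicate 1 (median 0.35) and 5 without replicate 6 (median 0.34), where 3.29% and 2.22% of all genes were.

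**Figure D4:**
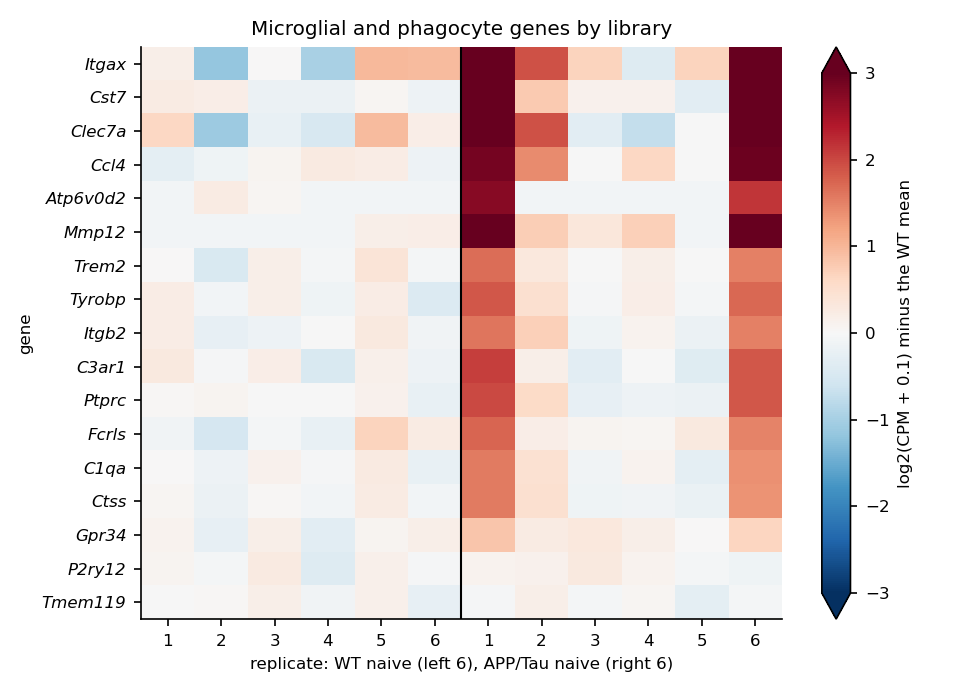
Log2(CPM + 0.1) of 17 microglial and phagocyte genes minus the mean of the 6 WT libraries (colour, from −3 to 3 with values beyond shown at the ends) in each naive library (columns, WT left and APP/Tau right). APP/Tau replicates 1 and 6 are raised for all of them but P2ry12 and Tmem119, replicate 2 less so, and replicates 3 to 5 lie near WT.

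Genes that microglia express in the resting state divided. Of 24 homeostatic microglia genes 12 were higher at an unadjusted p under 0.05, against 3.82% of all genes, and the list median was 0.33. Gpr34, a lysophospholipid receptor gene, stood at 9.15, 12.3 and 13.1 CPM in WT and at 11.5, 14 and 20.4 CPM in APP/Tau, a difference of 0.39 (unadjusted p = 0.00775), with 4 of 6 APP/Tau libraries above the WT range. Fcrls lay at 0.77 (0.0158) and the leukocyte phosphatase gene Ptprc at 0.97 (0.016). P2ry12, the purine receptor that marks resting microglia, stood at 26.8, 35.8 and 42.4 against 32.1, 38.1 and 43.3 CPM (0.07, unadjusted p = 0.442). Tmem119, a marker that separates microglia from blood-borne macrophages, stood at 18.7, 22.4 and 25.2 against 18.1, 21.4 and 25.2 CPM (−0.04, 0.701). Without replicate 1 or without replicate 6 the count of homeostatic microglia genes at that p fell to 2 each time, with medians of 0.23 and 0.25.

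Markers of macrophages at the brain's borders and of monocytes overlapped between the groups as a list. Of 16 tested genes 1 was higher at an unadjusted p under 0.05, the monocyte gene Ly6c2, with 15, 72, 78, 88, 2 and 21 counts in APP/Tau replicates 1 to 6 and 3 to 8 in WT. Its highest values were in replicates 2 to 4, not 1 and 6. With at most 8 counts in any WT naive library, Ly6c2 passed the filter on low counts through other libraries. The list score ranged from −0.33 to 0.68 in APP/Tau, with the highest value in replicate 6, and from −0.45 to 0.51 in WT. Of 20 T and B lymphocyte genes 13 passed the filter, with a median of 0.27. The part of these cells in the microglial results was not tested.

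Complement and reactive astrocyte genes were highest in the same 2 libraries. Of 22 complement genes 7 were higher at an unadjusted p under 0.05, against 3.82% of all genes, and the list median was 0.30. C3, the central complement component, stood at 1.25, 1.80 and 2.95 CPM in WT and at 1.94, 3.79 and 11.1 CPM in APP/Tau, where 4 libraries lay above the WT range. The difference was 1.55 (standard error 0.375, unadjusted p = 0.000263, edgeR quasi-likelihood adjusted p = 0.241) in naive and 2.05 (unadjusted p = 0.000138) in trained libraries. C1qa lay at 0.68 (0.0444), the receptor gene C3ar1 at 0.95 (0.0278), and the integrin gene Itgb2 at 0.78 (0.0196). C4b, which reactive astrocytes and oligodendrocytes express, stood at 37.4, 53.2 and 136 CPM in WT and at 49.6, 82.0 and 249 CPM in APP/Tau (1.00, 0.0499). Of 28 reactive astrocyte genes 6 were higher at that p, beside the same 3.82% of all genes, and the list median was 0.31. Gfap, their filament protein, lay at 0.69 (0.151), with 214, 386 and 1203 CPM in WT and 354, 436 and 1812 CPM in APP/Tau. Lcn2 lay at 2.40 (0.0197), Ggta1 at 0.73 (0.00686) and Cd44 at 0.57 (0.0338). The reactive score was −0.30 to 1.02 in APP/Tau and −0.44 to 0.27 in WT. Without replicate 1 or 6 the counts at that p were 2 and 2 for complement and 3 and 2 for reactive astrocyte genes, and without WT replicate 5 they were 10 and 11. Among 18 genes of resting astrocytes 0 had an unadjusted p under 0.05, and the median was 0.03.

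All 30 interferon-stimulated genes lay above 0, where 50.4% of all genes did, with a median of 0.45. At an unadjusted p under 0.05, 10 were higher, against 3.82% of all genes. Parp14 stood at 1.66, 2.16 and 3.90 CPM in WT and at 2.65, 3.68 and 6.03 CPM in APP/Tau, a difference of 0.75 (unadjusted p = 0.0176). Ifi44 lay at 1.72 (0.0185) and the antiviral GTPase genes Mx1 and Mx2 at 1.81 (0.024) and 0.77 (0.0274). The score was highest in replicate 6 (1.39) and spread from −0.62 upwards, below the lowest WT library (−0.51) at its lower end. Without replicate 6 the interferon-stimulated genes held 0 members at that p, with a median of 0.18, and without replicate 1 they held 2. In the trained comparison 28 of the 30 were higher at an unadjusted p under 0.05, where 6.82% of all genes were, with a median of 1.36. The difference between the trained and naive differences had an unadjusted p under 0.05 for 3 of the 30, and for 4.14% of all genes. Of 20 genes of antigen presentation 19 lay above 0 with a median of 0.37 in naive libraries. At an unadjusted p under 0.05, 2 were higher (3.82% of all genes were), Ctss at 0.67 (0.0468) and Cd74 at 1.65 (0.0487).

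Of 42 lysosome and autophagy genes 8 were higher and 1 was lower at an unadjusted p under 0.05, against 3.82% and 3.66% of all genes. The list median was 0.08. The count of higher lysosome and autophagy genes was 2 without APP/Tau replicate 6, 3 without APP/Tau replicate 1, 5 without WT replicate 2 or 6, 12 and 13 without APP/Tau replicates 3 and 4, and 17 without WT replicate 5. Man2b1, a mannosidase gene, stood at 32.9, 37.2 and 39.8 CPM in WT and at 36, 43.6 and 61.7 CPM in APP/Tau (0.36, 0.00944). Lamp2, a lysosomal membrane protein gene, lay at 0.23 (0.0149) in naive and at 0.43 (0.000648) in trained libraries. Atp6v0d2, a proton pump subunit of osteoclasts and phagocytes, had 50 and 36 counts in replicates 1 and 6, 0 in the other 4 APP/Tau libraries and 0 to 2 in WT. It passed the filter on low counts through libraries other than WT naive, and is among the 8 higher genes counted.

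Myelin genes lay above 0 without exception, at 0.15 to 0.49 for all 24, with a median of 0.26. At an unadjusted p under 0.05, 5 were higher, against 3.82% of all genes. Mbp, the myelin basic protein gene, stood at 1210, 1472 and 1742 CPM in WT and at 1490, 1857 and 1965 CPM in APP/Tau, a difference of 0.27 (unadjusted p = 0.0317). Myrf, the transcription factor of mature oligodendrocytes, lay at 0.27 (0.0226), the iron carrier gene Trf at 0.38 (0.0302) and Mal at 0.29 (0.0336). The scores overlapped, from −0.53 to 0.40 in WT, where replicate 5 was the highest, and from −0.11 to 0.53 in APP/Tau. The count of myelin and mature oligodendrocyte genes at that p ranged from 0, without APP/Tau replicate 6 or WT replicate 2, to 17, without WT replicate 5. In trained libraries 21 of the 24 were higher at an unadjusted p under 0.05, where 6.82% of all genes were, with a median of 0.55. In the naive comparison 1 of 20 genes of oligodendrocyte precursors was higher and 1 lower at that p, with a median of −0.04.

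**Figure D5:**
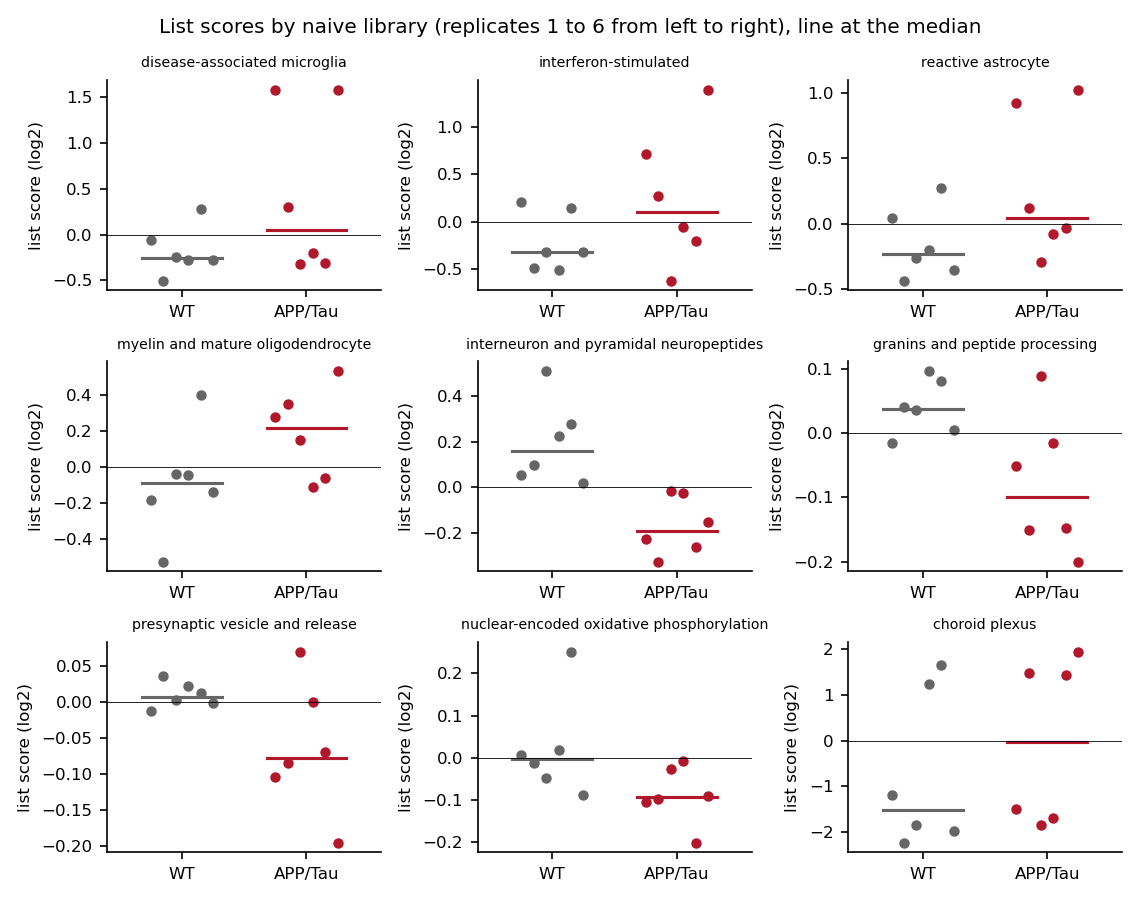
List scores (mean log2 CPM of a list's members minus the mean over 36 libraries, vertical axes) of 9 gene lists in the 6 WT (grey) and 6 APP/Tau (red) naive libraries, with a line at each group's median. The neuropeptide scores do not overlap (lowest WT 0.02, highest APP/Tau −0.02), the microglial, interferon and astrocyte scores are highest in APP/Tau replicates 1 or 6, and choroid plexus scores spread from −2.23 to 1.94 across both groups.

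Neuronal genes lay slightly below WT. Of 40 presynaptic vesicle and release genes 35 lay below 0, with a median of −0.08. At an unadjusted p under 0.05, 7 were lower, against 3.66% of all genes. That count of presynaptic vesicle and release genes was 3 without APP/Tau replicate 6, 4 without APP/Tau replicate 5 or WT replicate 2, and 11 without APP/Tau replicate 3. Syn1, which tethers vesicles, stood at 474, 527 and 582 CPM in WT and at 425, 471 and 520 CPM in APP/Tau, a difference of −0.16 (unadjusted p = 0.003) in naive and −0.17 (0.0147) in trained libraries. The fusion genes Napb and Nsf lay at −0.10 (0.0126) and −0.13 (0.0177), and Snap25 at −0.08 (0.107). Of 32 postsynaptic scaffold and kinase genes 5 were lower (2 without APP/Tau replicate 6), with a median of −0.05, among them Dlg4, which encodes PSD-95, at −0.13 (0.00986), Dlg3 at −0.13 (0.0133) and the calmodulin buffer gene Nrgn at −0.22 (0.0137). Of 31 glutamate receptor genes 6 were lower (3 without APP/Tau replicate 6), with a median of −0.09. Besides Grik1 of the chromosome 16 run these included the AMPA receptor partners Cacng8 at −0.20 (0.00899) and Cnih3 at −0.24 (0.00926), and Grm2 at −0.23 (0.028). In trained libraries 12 presynaptic, 13 postsynaptic and 5 glutamate receptor genes were lower at an unadjusted p under 0.05, where 3.4% of all genes were. The trained medians were −0.13, −0.16 and −0.09.

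Of 17 GABA receptor genes 4 were lower at an unadjusted p under 0.05, against 3.66% of all genes, and the list median was −0.10. Gabbr1, a subunit of the metabotropic receptor, stood at 676, 693 and 738 CPM in WT and at 573, 645 and 698 CPM in APP/Tau (−0.13, unadjusted p = 0.0043), with 5 of 6 APP/Tau libraries below the WT range. Gabbr2 lay at −0.13 (0.0333), the anchoring protein gene Gphn at −0.11 (0.0414), and Gabrd, a subunit of extrasynaptic receptors, at −0.33 (0.0154). The count of lower GABA receptor genes ranged from 1, without WT replicate 5, to 8, without APP/Tau replicate 3, and was 2 without APP/Tau replicate 4 or 6 or WT replicate 2. Of 20 neurofilament and axonal genes 6 were lower, with a median of −0.08. The count for the neurofilament and axonal cytoskeleton list was 2 without APP/Tau replicate 5 or 6 or WT replicate 5, and 3 without WT replicate 2 or 4. The axonal motor gene Kif5a lay at −0.29 (0.00607) and at −0.39 (0.00401) in trained libraries. The neurofilament gene Nefm lay at −0.21 (0.00281) in naive and at 0.09 (0.318) in trained libraries, and the difference of these had an unadjusted p of 0.00835. Mapk8ip2, a scaffold of the JNK pathway at synapses, stood at 261, 271 and 283 CPM in WT and at 215, 246 and 256 CPM in APP/Tau, without overlap (−0.16, unadjusted p = 0.000144, edgeR quasi-likelihood adjusted p = 0.16). In trained libraries 1 GABA receptor gene was lower at an unadjusted p under 0.05. Of the neurofilament and axonal genes 1 was lower and 1 higher there, where 3.4% and 6.82% of all genes were.

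Genes of oxidative phosphorylation encoded in the nucleus lay below 0 in 81 of 82 cases, with a median of −0.11. At an unadjusted p under 0.05, 17 were lower, against 3.66% of all genes. The ATP synthase subunit genes Atp5j, Atp5k, Atp5md and Atp5l lay at −0.16, −0.21, −0.20 and −0.22. Atp5j stood at 76.2, 79.8 and 89.4 CPM in WT and at 64.9, 73.0 and 76.2 CPM in APP/Tau (unadjusted p = 0.0065), with 5 of 6 APP/Tau libraries below the WT range. The score was highest in WT replicate 5 (0.25), and without that library 3 genes of nuclear-encoded oxidative phosphorylation were lower at that p, with a median of −0.06, where 2.36% of all genes were. Without APP/Tau replicate 5, whose score was the lowest (−0.20), 4 were. In trained libraries the median was 0.01 and 1 gene was lower, where 3.4% of all genes were. In the naive comparison the 13 genes of the mitochondrial genome had a median of −0.11 with 0 at that p, and were measured after mitochondria had been spun out of the lysate. Of 84 cytosolic ribosomal protein genes 2 were lower in naive libraries, with a median of −0.05.

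Genes of the amyloid and tau pathways were followed as separate lists. Of 22 genes of mouse App and its processing 0 had an unadjusted p under 0.05, with a median of −0.03. The alpha-secretase gene Adam17 lay at 0.17 (0.0574) and the amyloid-degrading protease gene Mme at 0.24 (0.0642). Of 29 genes of mouse Mapt and of its kinases and phosphatases 26 lay below 0 and 8 were lower (27.6%, against 3.66% of all genes), with a median of −0.07. Of the 29, 16 had their lowest value in APP/Tau replicate 6 and 15 their highest in WT replicate 5. Without either of these libraries the count of lower genes of the Mapt, tau kinase and phosphatase list was 3, and it was 5 without APP/Tau replicate 5 or WT replicate 1. Mark4, a kinase of the microtubule-binding repeats of tau, stood at 99.6, 103 and 104 CPM in WT and at 83.2, 92.5 and 98.3 CPM in APP/Tau, without overlap (−0.15, unadjusted p = 0.00675). Cdk5r1, the activator of Cdk5, lay at −0.13 (0.00865), Mark1 at −0.13 (0.0162) and Prkaca at −0.13 (0.0167), whereas Gsk3b lay at −0.05 (0.398). Among 35 orthologs of Alzheimer risk genes 5 were higher and 1 lower, against 3.82% and 3.66% of all genes. Of the 35, 14 had their highest value in APP/Tau replicate 1 and 8 in APP/Tau replicate 6. The list shares 3 genes with the disease-associated and 3 with the homeostatic microglia genes. Epha1, an ephrin receptor gene, stood at 0.350, 0.481 and 0.556 CPM in WT and at 0.606, 0.657 and 1.05 CPM in APP/Tau, without overlap (0.64, 0.00236). Cd2ap lay at 0.22 (0.00481) and Abi3 at −0.16 (0.0238). Of 27 cholesterol genes 24 lay above 0, with a median of 0.08, and 2 were higher, among them the cholesterol exporter gene Abca1 at 0.36 (0.00125).

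Hippocampal subfields were all present, and their markers lay at or slightly below WT. The 13 markers of CA1 pyramidal cells all lay below 0, with a median of −0.08 and 0 at an unadjusted p under 0.05, and their scores overlapped. Wfs1 stood at 113, 131 and 148 CPM in WT and at 82.7, 106 and 148 CPM in APP/Tau (−0.24, unadjusted p = 0.0998). Of 20 dentate granule cell genes 4 were lower (3.66% of all genes were), with a median of −0.10. In this list 9 genes had their lowest value in APP/Tau replicate 4 and 8 in APP/Tau replicate 6, while 8 had their highest in APP/Tau replicate 2. The count of lower dentate granule cell genes was 2 without WT replicate 1, and the median was −0.06 without APP/Tau replicate 4 or 6 and −0.18 without APP/Tau replicate 2. Calb1, the calbindin gene of granule cells, stood at 108, 115 and 141 CPM in WT and at 76.3, 104 and 111 CPM in APP/Tau (−0.24, unadjusted p = 0.00129), C1ql3 lay at −0.22 (0.0115) and Plk5 at −0.43 (0.0158). Prox1, the factor that defines granule cells, lay at −0.19 (0.233). In trained libraries Plk5 lay at −0.71 (0.00246) and Calb1 at −0.17 (0.0634).

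Choroid plexus, which borders the hippocampus, varied widely within both groups. All 25 of its markers lay above 0, with a median of 0.54 and 0 at an unadjusted p under 0.05. Ttr, its main secreted protein, ran from 23.7 to 2316 CPM in WT and from 46.5 to 2716 CPM in APP/Tau. With the choroid plexus score of each library as a covariate, 18 genes were called, 17 of them among the 17 above, and the neuropeptide and disease-associated microglia lists had medians of −0.31 and 0.46. Of 20 ependymal genes 1 was higher, with a median of 0.21. Sspo, which ependymal cells of the subcommissural organ secrete, stood at 1.58, 2.39 and 2.76 CPM in WT and at 2.46, 4.16 and 4.77 CPM in APP/Tau (0.70, unadjusted p = 0.000521, edgeR quasi-likelihood adjusted p = 0.396), and its tissue of origin in these libraries was not tested. The 24 endothelial genes had a median of 0.01, and the 9 tested blood genes, all below 0, one of −0.35.

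Set directly against each parent genotype, naive APP/Tau differed mainly in the genes of the other transgene's line. Against Tau naive (4 libraries) 10 genes were called (0.0394%), all lower, and 8 of them were chromosome 16 genes of the comparison with WT. Against APP naive (5 libraries) 7 were called (0.0276%), and 5 of them were Prnp and 4 of the Tau-line transcripts. Npy lay 0.30 below Tau naive (unadjusted p = 0.0248) and 0.21 below APP naive (0.0949) on the log2 scale. Of the 32 disease-associated microglia genes 0 were higher than in Tau naive at an unadjusted p under 0.05, where 3.25% of all genes were, with a median of 0.23, and 11 were higher than in APP naive (median 0.47), where 5.86% of all genes were. 1 of the 4 Tau naive libraries also reached 9.29 CPM of Itgax, while the 5 APP naive libraries stayed at 0.212 to 0.474 CPM. Nuclear-encoded oxidative phosphorylation genes lay lower than in APP naive for 37 of 82 (median −0.14, where 3.86% of all genes were lower at that p) and than in Tau naive for 2 (3.35% of all genes).

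Training gave a separate set of APP/Tau and WT libraries. There 14 of 25382 genes were called (0.0552%), and 11 of them were among the 17 of the naive comparison: 7 chromosome 16 genes, Prnp, Lamr1-ps1, 4930590L14Rik and Gm32754. Npy and Mmp12 were not among them. WT trained replicate 4 stood apart, with a striatal marker score of 2.06 where the other WT trained libraries lay from −0.39 to −0.05. The disease-associated microglia genes had a median of 0.91 with 23 of 32 higher at an unadjusted p under 0.05, where 6.82% of all genes were, and Itgax stood at 0.184, 0.869 and 16.9 CPM in the 3 trained APP/Tau libraries, so that 1 library again lay far above the rest. Whether the naive and trained differences differ was tested by their interaction, and 0 of 25382 genes passed adjustment in edgeR's quasi-likelihood test (smallest adjusted p = 0.713), with 1052 at an unadjusted p under 0.05 (4.14%). DESeq2 and limma-voom also called 0 genes.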

How the data were processed

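The authors deposited raw counts per gene for 36 libraries of hippocampal input RNA. The submitters' processing notes name Trimmomatic 0.39, a read trimmer, and the build mm39. Aligner, counter, annotation and strand setting: not given in the sources used here. Small counts were even more often than large ones (54.7% of counts from 1 to 10 were even), so both mates of some read pairs may have been counted. Of 50559 genes, 41519 had a count and 25382 passed filterByExpr (minimum count 10, minimum total 15). Library sizes were scaled by TMM, and 1 model of the 8 groups, which share 1 estimate of the spread, was fitted to all libraries with edgeR 4.0.16 (quasi-likelihood test, limma 3.58.1, R 4.3.3). P-values were adjusted by Benjamini-Hochberg over all tested genes, with a threshold of 0.05. Log values for scores used a prior count of 2, and the colour plot a pseudocount of 0.1 CPM.

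Groups came from the sample titles. The 48 gene lists (1149 genes, 1131 tested) and the comparison were chosen with earlier results of these data known. Named genes are the label checks, every called gene, the 10 uncalled genes of smallest p whose mean log2 CPM reached 0 and whose name is not a predicted one, and in each list up to 4 members of smallest p and up to 2 that define it; for any other gene the text says that it was named by position or after its values were seen, and some genes that the rule names are not reported here. Tested on simulated data with 25020 genes and 100 changes of each size, the test recovered 93% at a log2 size of 1 and 70% at 0.5, with 3.55% of calls false. Changes were placed only in genes whose mean log2 CPM reached 0, and no library was made to stand apart. Alternatives were other size factors, no filter, a replicate block, a library number or choroid plexus covariate, DESeq2 1.42.0, limma-voom, the compared groups alone, halved counts, the omission of each library and of a trained Tau library whose Prnp went against its label, and, chosen after seeing the data, the legacy quasi-likelihood fit. Promoters and gene order came from RefSeq (GRCm38.p6), a build other than that of the counts. Figures were drawn with Python 3.11.15, pandas 2.3.3 and matplotlib 3.10.9.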

Additional observations from a re-analysis of the deposited data

Results flagged for a closer look

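Within each group of 6 naive libraries, 270 sets of values were examined for a library far from the other 5, and 23 were found where the gap to the nearest library took up most of the group's range. Chance flags about 1 in 20 groups.

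WT replicate 5 was far above its group for 7 of them, with Gfap at 1203 CPM (next library 409.5), C4b at 136 (55.9), Cd44 at 8.87 (5.13), Trf at 467 (317), Chga at 162 (135), Cdk5r1 at 297 (266) and Calb1 at 141 (119). It was also the highest for App at 1902 CPM (1678) and held the sole WT count of Gm32875, 0.0100 CPM.

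APP/Tau replicate 6 was far above its group for Mmp3 at 1.01 CPM (0.194), Mx2 at 1.63 (0.861), Lcn2 at 1.39 (0.558) and Epha1 at 1.05 (0.749), and far below it for Mapk8ip2 at 215 CPM (243) and Dlg3 at 164 (194).

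The remaining values came from single genes in other libraries. Grik1 stood at 8.35 CPM in APP/Tau replicate 1 (7.37), Arc at 272 in APP/Tau replicate 3 (157) and Slc40a1 at 6.44, below the others, in APP/Tau replicate 2 (7.45). Parp14 stood at 3.90 CPM in WT replicate 1 (2.45), Npy5r at 8.14 in WT replicate 2 (7.47) and Gm32754 at 0.0109 in WT replicate 3 (0). Kif5a was low in WT replicate 4 at 1756 CPM (2229), and Nrgn was low in WT replicate 6 at 845 CPM (1086).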

How the results depend on the processing

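The count of called genes between naive APP/Tau and WT was 17 and lay between 14 and 20 when each of the 12 libraries was left out in turn. It was 14 with the replicate number as a replicate block and 17 with the library number as a covariate. With the compared groups alone it was 11 (4 higher, 7 lower, all among the 17). There fewer samples inform the spread, and the filter on low counts left 22758 genes, without Mmp12, Gm6214 and Gm32875. The replicate numbers did not pair the libraries: the correlation of same-numbered deviations lay between −0.12 and 0.13 over 6 pairs, and 2 of the 6 APP/Tau libraries correlated best with their own number. DESeq2 called 25 genes, among them Tiam1 (adjusted p = 0.0189), Crhbp (0.0316) and C3 (0.0189). Between the trained groups 14 genes became 99 with DESeq2, 24 with limma-voom and 25 with the compared groups alone, and 11 to 16 when a library was left out. Against Tau naive 10 became 20 with DESeq2 (9 to 12 with a library left out), and against APP naive 7 became 3 with the replicate block and 14 with DESeq2 (5 to 9). The cause was not tested. The interaction count was 0 under every alternative run. The differences of 4 genes near 0 changed sign with a library left out: Mapt (−0.002 to 0.033), Rpl22 (−0.008 to 0.046; −0.003 without APP/Tau replicate 1), P2ry12 (−0.002 to 0.125) and Tmem119 (−0.086 to 0.007). Totals of 75.4 to 115 M counts leave genes of a few counts per library, such as Mmp12 in WT, with the least precision.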
